A study of Mus musculus with 6 samples.

Results

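The proteasome genes were taken from the annotation of the Affymetrix Mouse Genome 430 2.0 array as all probe sets with exactly 1 gene symbol that begins with Psma, Psmb, Psmc, Psmd, Psme, Psmf or Psmg and a number. This rule, which uses names and no measured value, gave 103 of 45037 probe sets and 49 of 18193 genes. Of the 49 genes, 47 encode subunits, activators, an inhibitor or assembly factors of the proteasome. The other 2 match the name pattern but have none of these roles: Psmc3ip acts in meiotic recombination, and Psme3ip1 binds the activator encoded by Psme3. A probe set annotated to both Psme2 and Psme2b was left out because it had several symbols.

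The proteasome is the protease that degrades most ubiquitin-tagged proteins of the cytosol and nucleus. Its barrel-shaped core particle is built from rings of alpha and beta subunits, and the proteolytic sites lie on some of the beta subunits inside the barrel. A regulatory particle (19S) with a ring of ATPases and a set of non-ATPase subunits binds ubiquitinated substrates, unfolds them and feeds them into the core. Most cells make the constitutive form at a steady level, whereas immune cells and cells exposed to interferon exchange the catalytic subunits for those of the immunoproteasome. The protein p53 is degraded by the proteasome after ubiquitination by Mdm2.

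The arrays carried RNA of 6 single E8.5 mouse embryos, of which 3 were wild-type and 3 were their Tcof1+/- littermates, with 1 array per embryo. Tcof1 encodes the nucleolar factor treacle, on which ribosomal RNA production depends, and the Tcof1+/- genotype leaves 1 intact copy. The labels name no other allele or agent, and they give neither the strain nor the altered part of the allele. Because each sample mixed all cell types of an embryo, fewer cells of a type and less RNA per cell cannot be told apart.

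Signals are linear and in arbitrary units, with a trimmed mean of 150 on every array and array medians of 21.0 to 25.6. Differences are given as Tcof1+/- minus wild-type on the scale log2(signal + 1.87), with p-values from limma adjusted over all 27022 probe sets bright enough to be tested. Tcof1 itself was at 387 ± 5.89 in wild-type and 211 ± 27.7 in Tcof1+/- embryos (SD, n = 3 each), a difference of -0.88 with a limma adjusted p of 0.0352. All 9 matched genes of a list of 10 markers of embryos of this age were bright enough to be tested, with 2 positive and 7 negative differences. None of these 9 passed in limma, and 3 had an unadjusted p under 0.05 with no overlap of the genotypes: Otx2 of the anterior neural plate (-0.53), the neural gene Sox2 (-0.23) and Myl7 of the heart tube (0.27). Of all tested probe sets 6.22% had an unadjusted p under 0.05, and 12.2% did not overlap. Markers of blood and yolk sac varied widely among embryos. The summed signal of 8 primitive erythroid genes was 9768, 13875 and 5879 in wild-type embryos 1, 2 and 3. It was 341, 7488 and 11366 in Tcof1+/- embryos 1, 2 and 3. All 8 differences were negative, but the genotypes overlapped for each gene and none passed (lowest limma adjusted p 0.793). The summed signal of 7 yolk sac endoderm genes was 1907 to 9858 in wild-type and 853 to 15640 in Tcof1+/- embryos. Their direction depended on the scale: 6 of 7 log2 differences were negative, with Tcof1+/- embryo 2 the lowest of all embryos, whereas the mean signal was higher in Tcof1+/- embryos for all 7. Gapdh control probe sets at the ends of the transcript differed in log2 signal (3 prime minus 5 prime) by 0.91 in wild-type and by 0.76 in Tcof1+/- embryos (exact permutation p = 0.1, two-sided, the smallest possible). For actin the same measure was 0.80 in wild-type and 0.74 in Tcof1+/- embryos (exact permutation p = 0.2). The array medians gave an exact permutation p of 0.9. The brightest bacterial control without a target was at 13.5, 12.9 and 11.4 in wild-type and 10.7, 8.55 and 11.3 in Tcof1+/- embryos, with no overlap (exact permutation p = 0.1). Arrays of both genotypes were scanned on each of 2 days, but no fluidics module held both genotypes, so module and genotype cannot be told apart. The part of these measures in the proteasome values was not tested.

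Transcripts of the proteasome differed little between the genotypes. Of the 49 genes, 46 were bright enough to be tested on their brightest probe set, and their log2 differences ran from -0.18 to 0.23, with 24 positive, 22 negative and a median of 0.00. None of the 46 had a limma adjusted p below the threshold of 0.05 (lowest 0.584). Of all tested probe sets 0.0814% passed, 0.0777% as higher and 0.0037% as lower in Tcof1+/- embryos. Of the 46 genes 2, Psma5 and Psmb7, had an unadjusted p under 0.05, where 6.22% of all tested probe sets did. Over all tested probe sets 13767 differences were positive and 13255 negative, with a median of 0.0047. With equal array medians, which put the median of all tested probe sets at -0.010, the split of the 46 genes became 18 positive and 28 negative. Of all 103 probe sets of the 49 genes 85 were bright enough to be tested, 0 passed and 3 had an unadjusted p under 0.05.

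These estimates were narrow in the main fit, which models the variance by brightness (an intensity trend). The median standard error was 0.07 for the 46 genes and 0.19 over all tested probe sets. The 95% interval of the difference lay within 1.25-fold in both directions for 35 of the 46 genes and within 1.5-fold for 44. The exceptions at 1.5-fold were Psma8 and Psmc4. The widths depended on the processing. The SE of Psma5 was 0.059 in the main fit, 0.097 without the intensity trend and 0.119 with equal array medians. For Psmb7 it was 0.062, 0.098 and 0.120, and for Psmc2 0.055, 0.095 and 0.116. On its brightest probe set no gene differed by over 0.25 on the log2 scale. Of all 85 tested probe sets of these genes 8 (9.41%) did, all with a mean signal of 14.9 to 143, and of the 27022 tested probe sets 7862 (29.1%) did. Dim probe sets vary more, so values are also given by brightness: 30 of the proteasome genes had a mean signal over 1000, and their median standard error was 0.07, beside 0.08 for the 2432 tested probe sets that bright. Of these 2432, 115 (4.73%) differed by over 0.25, beside 0 of the 30.

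**Figure D1:**
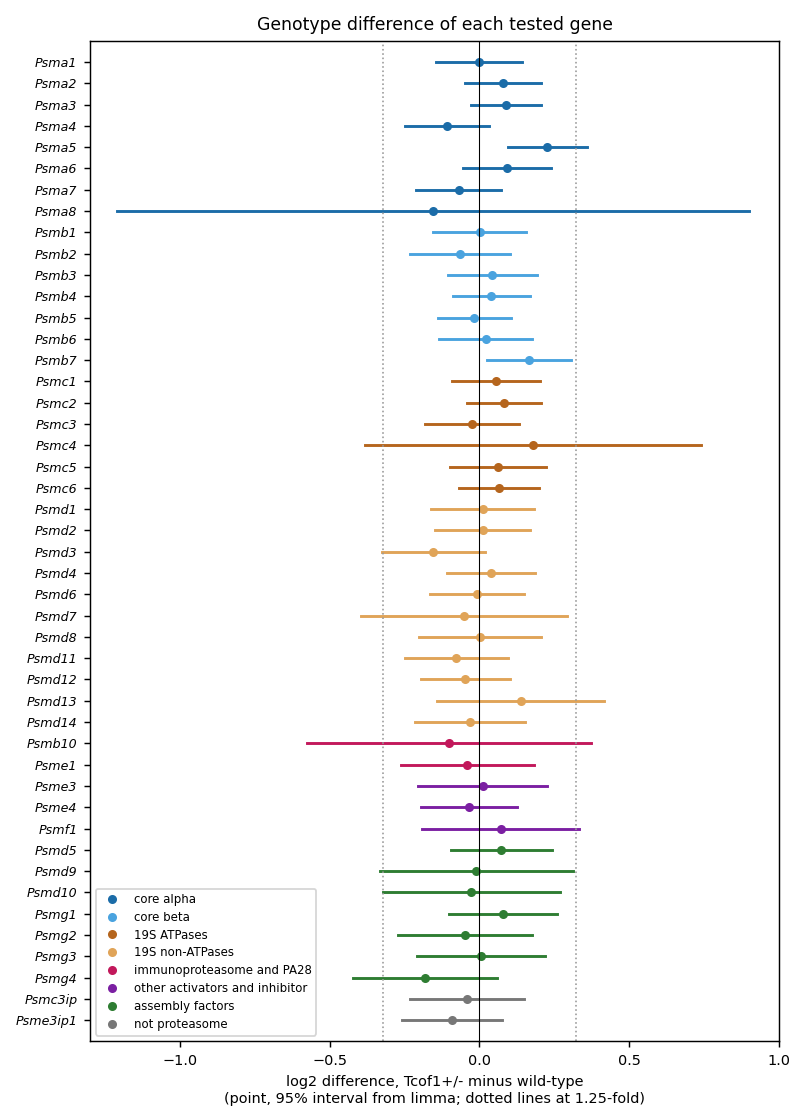
Log2 difference of each of the 46 tested genes (horizontal axis, Tcof1+/- minus wild-type, 3 embryos each), with the limma estimate as a point, its 95% interval as a bar, colour for the role and dotted lines at 1.25-fold. The points lie between -0.18 and 0.23, and the widest bars belong to Psma8 and Psmc4.

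Single embryos also stayed close together. The median deviation of the 46 genes from their own means over the 6 embryos was 0.02, 0.00 and -0.02 in wild-type embryos 1, 2 and 3 and -0.02, 0.03 and -0.01 in Tcof1+/- embryos 1, 2 and 3. The standard deviation over the 6 embryos had a median of 0.08 for these genes, with a range of 0.03 to 0.59, and a median of 0.23 for all tested probe sets. For the 30 genes with a mean signal over 1000 the median was 0.07, and for all tested probe sets that bright it was 0.09. The genotypes did not overlap for 6 of the 46 genes (13.0%), where 12.2% of all tested probe sets did not overlap. Of these 6, Psma3, Psma5 and Psmb7 were higher in all 3 Tcof1+/- embryos (6.0% of all tested probe sets), and Psma7, Psmd3 and Psme3ip1 were lower (6.18%).

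**Figure D2:**
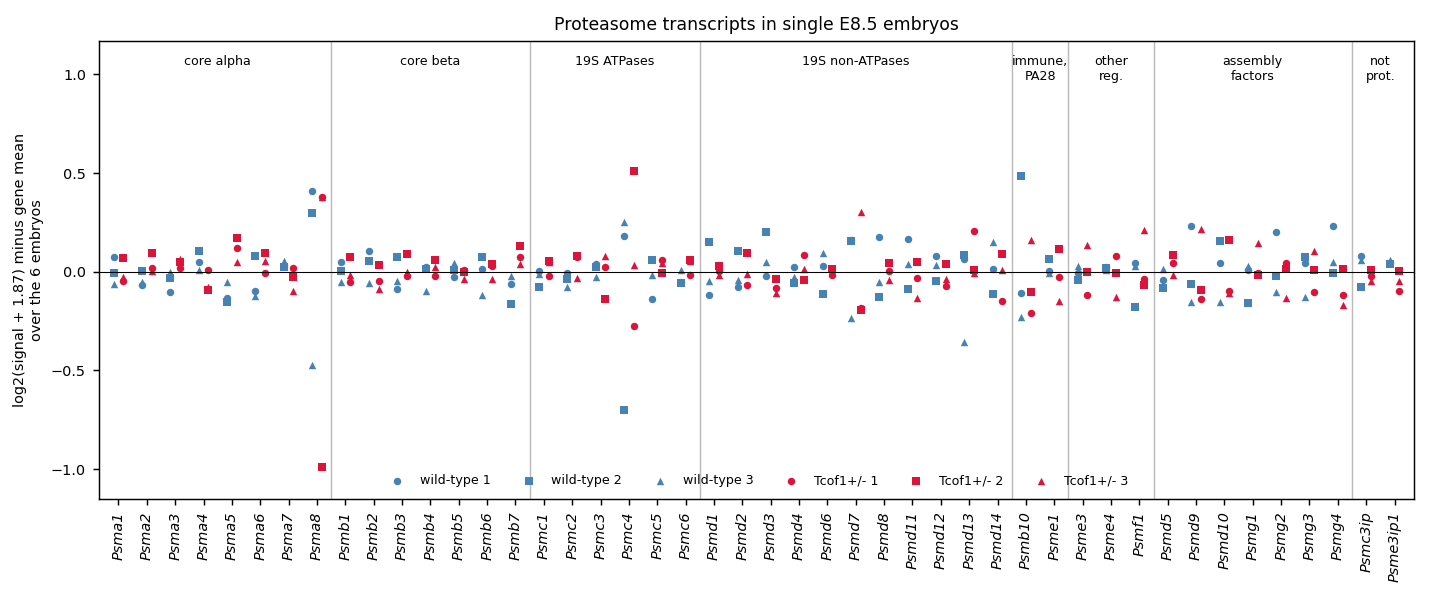
Deviation of each embryo from the gene's mean over the 6 embryos on the log2(signal + 1.87) scale (vertical axis) for the 46 tested genes in role order (horizontal axis), with wild-type embryos in blue and Tcof1+/- embryos in red. Most points lie near 0 in both genotypes; the widest scatter is that of Psma8, whose standard deviation was 0.59, and Psmc4, at 0.43.

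The alpha subunits form the outer rings of the core and control entry into it. Psma1 to Psma7 had log2 differences from -0.11 to 0.23, and none passed. Psma5 was at 3237, 3183 and 3421 in wild-type embryos 1, 2 and 3 and at 3849, 3992 and 3672 in Tcof1+/- embryos 1, 2 and 3. All 3 Tcof1+/- embryos were above all 3 wild types on this probe set, by 0.23 (SE 0.06, limma adjusted p = 0.584), with a 95% interval of 1.07- to 1.28-fold. Psma5 had the smallest p of the 46 genes, and this interval is not adjusted for that choice. Within scan days the difference was 0.29 on the first (2 embryos of each genotype) and 0.10 on the second (1 of each, with no test). The other tested probe set of Psma5 gave 2375 to 2803 in wild-type and 2421 to 2566 in Tcof1+/- embryos, which overlapped, and a difference of -0.03 (SE 0.07).

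Psma4 had the next smallest p among the alpha subunits. It was at 2374, 2471 and 2308 in wild-type and 2313, 2153 and 2173 in Tcof1+/- embryos, so that wild-type embryo 3 lay just below Tcof1+/- embryo 1 and the groups overlapped. Its difference was -0.11 (SE 0.06, limma adjusted p = 0.824). Psma3 was at 4872, 5112 and 5228 in wild-type and 5296, 5402 and 5475 in Tcof1+/- embryos, a difference of 0.09 (adjusted p = 0.824). Psma7, with 1769, 1766 and 1803 in wild-type and 1757, 1707 and 1625 in Tcof1+/- embryos, differed by -0.07, and its second probe set by -0.11. Psma8, the alpha subunit of the testis, was near the limit for testing at 21.8, 20.0 and 10.96 in wild-type and 21.3, 7.09 and 21.3 in Tcof1+/- embryos. Its 95% interval of 0.43- to 1.87-fold reached far to both sides of no difference.

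The beta subunits form the inner rings, and Psmb5, Psmb6 and Psmb7 carry the chymotrypsin-like, caspase-like and trypsin-like sites of the constitutive core. Of the 7 beta genes 5 had positive and 2 negative differences, with a median of 0.02. Psmb7 was at 2625, 2445 and 2694 in wild-type and 2882, 3000 and 2818 in Tcof1+/- embryos. The Tcof1+/- embryos were all higher, by 0.16 (SE 0.06), with an unadjusted p of 0.0252 and a limma adjusted p of 0.774. Within the first scan day it was 0.21 and within the second 0.065. Psmb5 was at 3032, 3103 and 3183 in wild-type and 3109, 3088 and 3011 in Tcof1+/- embryos. Its difference of -0.02 had a 95% interval of 0.91- to 1.08-fold, and its standard deviation over the 6 embryos, 0.03, was the smallest of the 46 genes.

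Psmb6 gave 1888, 1970 and 1728 in wild-type and 1910, 1923 and 1826 in Tcof1+/- embryos, which overlapped, with a difference of 0.02 (95% interval -0.14 to 0.18 on the log2 scale). Psmb2, a non-catalytic beta subunit and the member of this group with the second smallest p, gave 1310, 1265 and 1169 against 1178, 1249 and 1148. It differed by -0.07 (SE 0.07, limma adjusted p = 0.901). The remaining beta genes, Psmb1, Psmb3 and Psmb4, differed by 0.00 to 0.04 on their brightest probe sets. A second bright probe set of Psmb4 was at 2241, 2284 and 2529 in wild-type and 2607, 2836 and 2435 in Tcof1+/- embryos, with overlap. It differed by 0.16 (SE 0.08, limma adjusted p = 0.801). The second probe set of Psmb3 differed by -0.04, and dim ones of Psmb1 by -0.06 and -0.11.

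The immunoproteasome swaps the catalytic beta subunits: Psmb8 takes the place of Psmb5, Psmb9 that of Psmb6 and Psmb10 that of Psmb7, and Psmb11 does so for Psmb5 in the thymus. In these embryos Psmb8, Psmb9 and Psmb11 were not bright enough to be tested. Psmb8 was at 0.760, 0.700 and 6.77 in wild-type and 4.04, 0.764 and 8.76 in Tcof1+/- embryos on its brighter probe set, and at 0.707 to 5.80 on the other. Psmb9 was at 1.45, 6.67 and 11.4 in wild-type and 11.03, 9.59 and 10.2 in Tcof1+/- embryos. Psmb11 was at 5.32, 9.22 and 2.37 against 1.97, 2.34 and 3.28. These signals lay in or below the range of the brightest bacterial control without a target over the 6 arrays, 8.55 to 13.5. Against the control of the same array, Psmb9 was higher in Tcof1+/- embryos 1 (11.03 and 10.7) and 2 (9.59 and 8.55). Values so low are given no order between the genotypes.

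Psmb10 and Psme1 were the tested members of this group. Psmb10 was at 75.4, 115 and 69.2 in wild-type and 70.2, 75.5 and 91.1 in Tcof1+/- embryos, with wild-type embryo 2 the highest of all. It differed by -0.10 (SE 0.21, limma adjusted p = 0.944) with a 95% interval of 0.67- to 1.30-fold, and by 0.12 when wild-type embryo 2 was left out. Psme1, a subunit of PA28, the interferon-inducible activator that caps the core in place of the regulatory particle, was at 385, 403 and 384 in wild-type and 378, 417 and 348 in Tcof1+/- embryos. Its difference was -0.04 (SE 0.10, adjusted p = 0.954), and 0.02 without Tcof1+/- embryo 3.

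**Figure D3:**
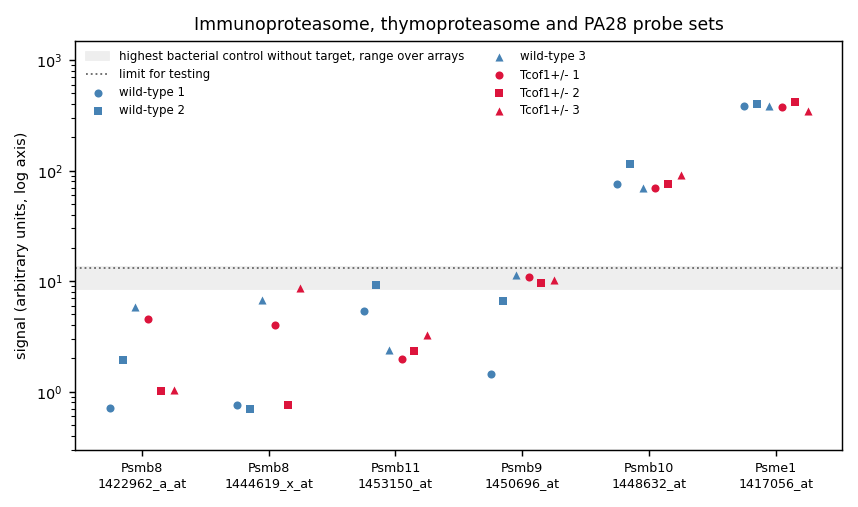
Signal of each embryo on a log axis for the probe sets of Psmb8, Psmb9, Psmb10, Psmb11 and Psme1 (horizontal axis). The limit for testing, set on the mean log2 value and turned back to a signal of 13.2, is dotted. The range of the brightest bacterial control without a target, 8.55 to 13.5, is shaded. Psmb8, Psmb9 and Psmb11 lie at or below the shaded band in all 6 embryos, and Psmb10 and Psme1 lie above it.

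Genes of the interferon response and antigen presentation were partly below the limit for testing. Of 12 such genes 10 were matched and 5 were bright enough to be tested, with 3 positive and 2 negative differences and none that passed. The 3 positive ones include Tap1, whose sign was favoured by the limit for testing, as given below. B2m, the light chain of MHC class I, was at 256 to 317, the transcription factor gene Irf1 at 67.2 to 109 and Tapbp, a peptide loading factor, at 42.7 to 58.4 over the 6 embryos. In the gene order of the RefSeq table Tap1, which encodes a subunit of the peptide transporter, lies between Psmb9 and Psmb8, and Tap2 lies on the other side of Psmb8. Tap1 was at 12.6, 21.8 and 4.99 in wild-type and 27.5, 25.6 and 23.6 in Tcof1+/- embryos. Wild-type embryos 1 and 3 lay below the brightest bacterial control of their own arrays, and the gene reached the limit for testing through the Tcof1+/- arrays (means of 13.1 and 25.5), so no size is given for its difference, which did not pass (limma adjusted p = 0.793). Irf9, a subunit of the interferon-induced transcription factor complex, differed by 0.16 (adjusted p = 0.923). Tap2 and 4 other genes of the list were too dim to be tested. Of 8 matched marker genes of blood and immune cells 4 were too dim to be tested, among them the pan-leukocyte gene Ptprc at 0.700 to 11.5. The 4 tested ones had 3 positive and 1 negative differences, and none passed. The summed signal of all 8 was 87.0 to 163 in wild-type and 94.6 to 193 in Tcof1+/- embryos.

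The upstream sequences of 2 constitutive catalytic genes, Psmb5 and Psmb6, and of their immune counterparts Psmb8 and Psmb9 are shown because the first pair was measured well above background and the second was not. Psmb7 and its counterpart Psmb10 were both measured above background and are not shown. Each is the 200 bases before the annotated start, 5′ to 3′ on the strand of the gene, from RefSeq on GRCm38.p6: Psmb5 at chr14:54617996-54618195 on the minus strand, Psmb6 at chr11:70525157-70525356 on the plus strand, Psmb8 at chr17:34197995-34198194 on the plus strand and Psmb9 at chr17:34187331-34187530 on the minus strand. Capitals mark a match to TGACNNNGC, the core of the antioxidant response element that is bound by the transcription factors encoded by Nfe2l1 and Nfe2l2.
Psmb5: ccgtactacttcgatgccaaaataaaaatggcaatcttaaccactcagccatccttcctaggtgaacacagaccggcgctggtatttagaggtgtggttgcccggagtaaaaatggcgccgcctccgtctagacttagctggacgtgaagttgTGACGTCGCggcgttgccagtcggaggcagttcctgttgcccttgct
Psmb6: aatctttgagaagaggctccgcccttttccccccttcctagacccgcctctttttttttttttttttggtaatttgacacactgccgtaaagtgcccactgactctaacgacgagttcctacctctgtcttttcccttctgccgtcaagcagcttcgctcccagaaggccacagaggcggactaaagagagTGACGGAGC
Psmb8: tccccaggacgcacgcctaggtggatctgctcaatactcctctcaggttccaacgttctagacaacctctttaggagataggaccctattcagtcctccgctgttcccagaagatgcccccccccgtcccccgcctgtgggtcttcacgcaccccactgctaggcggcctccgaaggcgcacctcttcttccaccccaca
Psmb9: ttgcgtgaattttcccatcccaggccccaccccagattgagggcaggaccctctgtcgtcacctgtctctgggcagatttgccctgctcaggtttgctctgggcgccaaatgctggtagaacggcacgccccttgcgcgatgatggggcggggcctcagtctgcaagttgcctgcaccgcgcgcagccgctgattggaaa

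Psmb5 held TGACGTCGC at bases -47 to -39 and Psmb6 held TGACGGAGC at bases -9 to -1, counted back from the start. The printed stretches of Psmb8 and Psmb9 held no match to these letters on either strand. Upstream sequences were in the table for 41 of the 49 genes (44 starts), and 250 bases before each start were searched on both strands. TGACNNNGC was in 5 of the 44 (11.4%), those of Psmb5, Psmb6, Psmc6, Psmd9 and Psmd12, and in 10.2% of all 32851 starts. Psmb10, with signal above background, was searched and had no match. Whether the motif goes with the signal of these genes was not tested. The core of the interferon-stimulated response element, GAAA repeated after a gap of 2 bases of any kind, was in 3 of 44 (6.82%), those of Psmb3, Psmd4 and Psmd9, and in 2.98% of all. CCAAT was in 36.4% of the 44 and 33.8% of all, GGGCGG in 50.0% and 32.7%, and CGGAAG, a core of ETS factor sites, in 47.7% and 13.6%. These were 5 of 14 motifs tried, chosen for description after a first look, and the others were in 0 to 3 of the 44. A match of letters is not a binding site.

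The 6 ATPases of the regulatory particle unfold substrates. Their differences ran from -0.02 to 0.18, with 5 positive and 1 negative and a median of 0.06, and none passed. Psmc2 was at 4514, 4418 and 4302 in wild-type and 4782, 4799 and 4445 in Tcof1+/- embryos, where the lowest Tcof1+/- embryo lay below the highest wild type. It differed by 0.08 (SE 0.06, limma adjusted p = 0.848). Psmc6 was at 2055, 2052 and 2147 against 2108, 2222 and 2216, with overlap, and differed by 0.07 (SE 0.06, adjusted p = 0.879). Its other 2 tested probe sets differed by 0.13 each.

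Psmc4 was unlike the other ATPases, and was chosen after its values were seen. Its brightest probe set gave 2752, 1495 and 2894 in wild-type and 2005, 3456 and 2487 in Tcof1+/- embryos, so that both the lowest and the highest embryo stood apart from the rest and belonged to different genotypes. The standard deviation over the 6 embryos was 0.43, and the difference was 0.18 (SE 0.25, 95% interval 0.77- to 1.67-fold). The other probe set of Psmc4 gave 1717, 1711 and 1561 in wild-type and 1661, 1626 and 1639 in Tcof1+/- embryos, with a standard deviation of 0.05 and a difference of -0.02. The wide scatter was seen on the brighter probe set alone, and no probe sequences were used here to tell which transcripts each detects.

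The 11 non-ATPase subunits include the ubiquitin receptor Psmd4, the deubiquitinase Psmd14 and the scaffold subunits Psmd1 and Psmd2. Their differences ran from -0.15 to 0.14, with 5 positive, 6 negative and a median of -0.01. Psmd3, a scaffold subunit of the lid, was at 1192, 1387 and 1253 in wild-type and 1140, 1177 and 1121 in Tcof1+/- embryos. All 3 Tcof1+/- embryos were below the wild types, by a difference of -0.15 (SE 0.08, limma adjusted p = 0.810, 95% interval 0.80- to 1.01-fold). Without wild-type embryo 2, the highest, the difference was -0.092, and within scan days it was -0.15 and -0.16. Psmd13, also of the lid, was at 758, 769 and 566 against 836, 729 and 721, and its difference of 0.14 (SE 0.13, adjusted p = 0.878) became -0.01 without wild-type embryo 3, the lowest. Psmd14 differed by -0.03, Psmd1 by 0.01 and Psmd2 by 0.01.

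Psmd4 and Psmd7 also had dim probe sets, whose differences were about as large as their standard errors. Psmd4 was at 1806, 1705 and 1744 in wild-type and 1885, 1724 and 1790 in Tcof1+/- embryos, a difference of 0.04 (SE 0.07, limma adjusted p = 0.931). A dim probe set of the gene gave 10.7, 35.2 and 4.99 against 12.1, 31.0 and 24.0, which overlapped, and a difference of 0.63 with an SE of 0.605. Psmd7, the partner of Psmd14 in the lid, was at 748, 747 and 568 in wild-type and 589, 585 and 827 in Tcof1+/- embryos. It differed by -0.05 (SE 0.15, adjusted p = 0.962), and the sign turned when wild-type embryo 1 or 2 or Tcof1+/- embryo 1 or 2 was left out (0.01 to 0.03). Its dim probe set, at 8.34 to 35.4 and 22.2 to 37.9, differed by 0.49 (SE 0.46). A further probe set of Psmd7, too dim to be tested, was at 20.1, 12.0 and 17.1 in wild-type and 2.19, 7.80 and 8.32 in Tcof1+/- embryos.

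**Figure D4:**
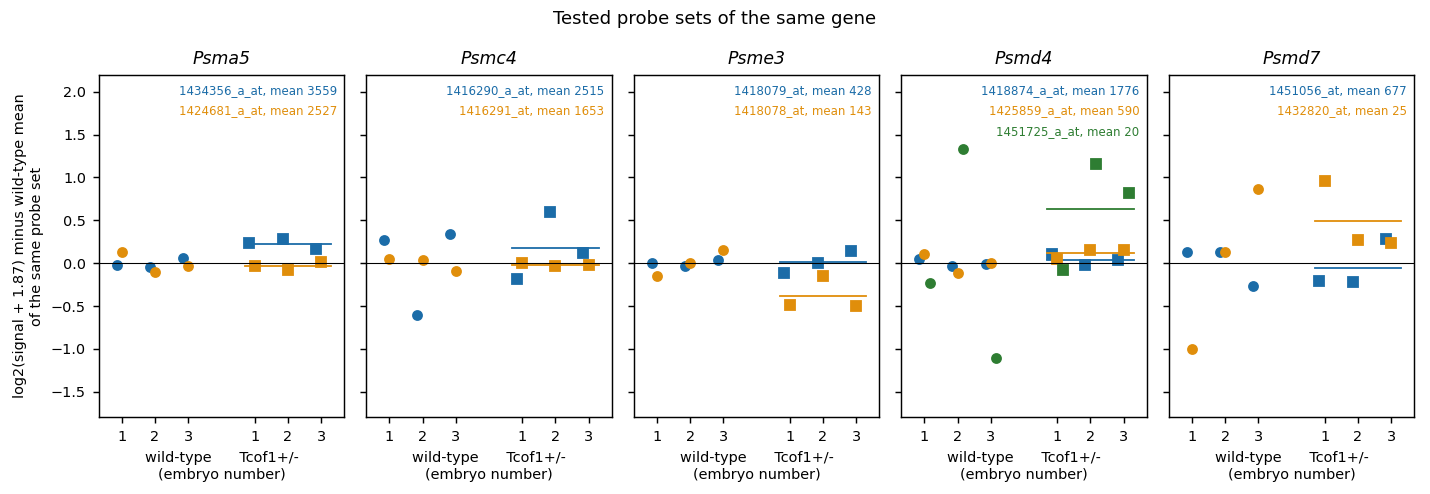
Log2(signal + 1.87) of each embryo minus the wild-type mean of the same probe set (vertical axis) for the tested probe sets of Psma5, Psmc4, Psme3, Psmd4 and Psmd7, with embryos along the horizontal axis, circles for wild-type, squares for Tcof1+/- and a line at the Tcof1+/- mean. In Psma5 the probe sets differ by 0.23 and -0.03, in Psmc4 only the brighter probe set scatters widely, and in Psmd4 and Psmd7 the dimmest do.

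Other regulators act beside the regulatory particle. Psme3 encodes a nuclear activator of degradation without ubiquitin, with p21 among its known substrates. It was at 425, 415 and 436 in wild-type and 394, 426 and 470 in Tcof1+/- embryos, with the Tcof1+/- embryos on both sides of the wild types. It differed by 0.01 (SE 0.10, limma adjusted p = 0.988). A dimmer probe set of Psme3 gave 144, 161 and 180 against 115, 145 and 114, a difference of -0.38 (SE 0.15, unadjusted p = 0.0297, adjusted p = 0.781), with Tcof1+/- embryo 2 just above the lowest wild type. Psme4, a nuclear activator linked to the turnover of acetylated histones, was at 1576, 1570 and 1560 against 1639, 1544 and 1417 on its brightest probe set. It differed by -0.04 (SE 0.07, adjusted p = 0.943), and by 0.02 without Tcof1+/- embryo 3. Its other 4 tested probe sets differed by -0.48 to 0.07, the lowest on one at 24.3, 30.3 and 33.3 against 20.3, 19.8 and 20.6, which did not overlap. That dim probe set had an SE of 0.27 and a limma adjusted p of 0.824, and 12.2% of all tested probe sets did not overlap. Psmf1, named as an inhibitor of the core, was at 315, 269 and 311 against 297, 291 and 353, with a difference of 0.07 (SE 0.12, adjusted p = 0.928) that became -0.02 without Tcof1+/- embryo 3.

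Assembly factors build the complex and leave it: Psmg1 to Psmg4 act on the core, and Psmd5, Psmd9 and Psmd10 on the ATPase ring. The 7 genes had 3 positive and 4 negative differences, from -0.18 to 0.08, with a median of -0.01. Psmg4 was at 376, 318 and 331 in wild-type and 294, 323 and 284 in Tcof1+/- embryos, where 1 Tcof1+/- embryo lay above the lowest wild type. Its difference of -0.18 (SE 0.11, limma adjusted p = 0.831) was the lowest of the 46 genes. Psmg1 was at 1304, 1161 and 1320 against 1287, 1278 and 1432, and differed by 0.08 (SE 0.08, adjusted p = 0.890). The genes that match the name pattern without such a role, Psmc3ip and Psme3ip1, differed by -0.04 and -0.09.

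**Figure D5:**
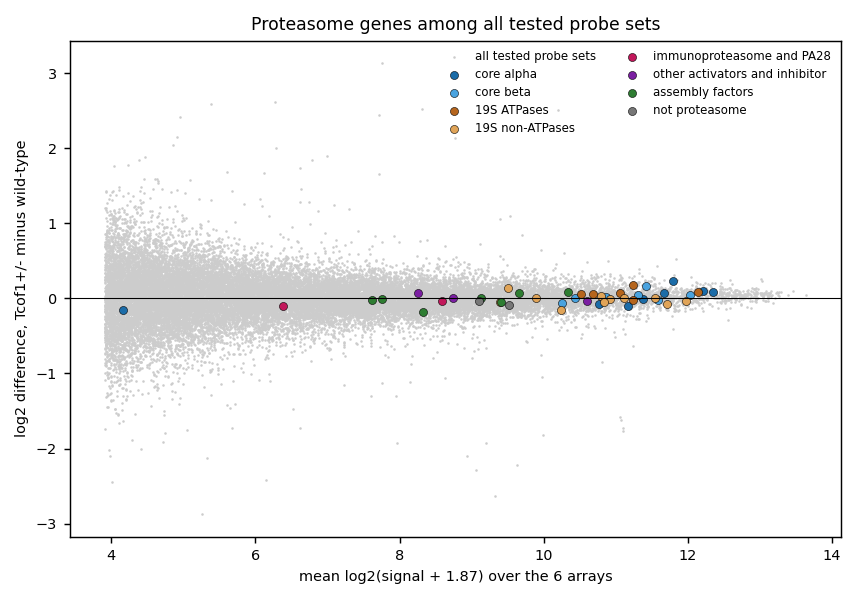
Mean log2(signal + 1.87) over the 6 arrays (horizontal axis) against the log2 difference, Tcof1+/- minus wild-type (vertical axis), for all 27022 tested probe sets in grey and the 46 tested proteasome genes in colour by role. The coloured points stay between -0.18 and 0.23 at every level.

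Factors that work with the proteasome were tested in the same fit. Of a list of 31 such genes, which includes ubiquitin receptors, maturation factors and regulators of proteasome transcription, 22 were matched and tested, with 13 positive and 9 negative differences from -0.11 to 0.24 and a median of 0.01. None passed, and 1 had an unadjusted p under 0.05, where 6.22% of all tested probe sets did. This was Usp14, a deubiquitinase bound to the regulatory particle, at 909, 896 and 889 in wild-type and 1032, 1100 and 1042 in Tcof1+/- embryos. All 3 Tcof1+/- embryos were higher, by 0.24 (SE 0.07, limma adjusted p = 0.664). Ubqln1 did not overlap either, at 1701 to 1847 in wild-type and 1866 to 1896 in Tcof1+/- embryos, and differed by 0.07 (SE 0.06, adjusted p = 0.872). Of all tested probe sets 12.2% did not overlap, 6.0% as higher in Tcof1+/- embryos. Nfe2l1, whose product raises proteasome transcription when the proteasome is inhibited, was at 165, 157 and 143 against 150, 173 and 175, with overlap, and differed by 0.10 (SE 0.13, adjusted p = 0.911). Nfe2l2, the gene of the related factor of the oxidative stress response, was at 326, 370 and 347 against 431, 421 and 367, with overlap, and differed by 0.22 (SE 0.10, adjusted p = 0.798).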

How the data were processed

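Each embryo gave 100 ng of total RNA for amplification and biotin labelling, and each array received 20 µg of the product, per the labels' protocols. The values deposited by the authors are linear intensities, one for each probe set on an array, made with GCOS per the submitters' processing notes (signal algorithm: not given in the sources used here). Scan day and fluidics module came from the deposited instrument records, and the other fields were not used.

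Of 45101 probe sets 64 controls were left out. Values were taken as log2(signal + 1.87), with the 10th percentile of all values added, without rescaling. Probe sets in the lowest 40% by their mean on this log2 scale were not tested. Turned back to a signal, this limit was about 13.2, which is not a limit on the mean of the signals. Genotypes were compared with limma 3.58.1 in R 4.3.3 (lmFit, and eBayes with an intensity trend), two-sided, with genotype as the sole term and Benjamini-Hochberg adjustment. The fit was tested on simulated data. The probe set with the highest mean stood for a gene. The number of arrays limits the precision.

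The members and lists were chosen with earlier results of these data known. Values on every array are given for the immunoproteasome genes, the 2 members of each other role with the smallest p, and members whose tested probe sets differ by over 0.5. Of the pathway and interferon lists the 2 genes with the smallest p and Nfe2l1 are named. Psma3, Psma7, Psma8, Psmb5, Psmb6, Psmc4, Psme3, B2m, Irf1, Tapbp, Tap2, Ptprc, Ubqln1 and 3 embryo markers were chosen after values were seen. The further probe sets of Psma5, Psmb1, Psmb3, Psmb4 and Psmd7 and the promoter motifs were also chosen after values or sequences were seen. Alternatives were other pseudocounts, scalings, filters, variance models, blocks, an Xist covariate, the scan days apart, all probe sets of a gene, and each array left out.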

Additional observations from a re-analysis of the deposited data

How the results depend on the processing

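No proteasome gene passed in limma under any of 18 alternatives that gave a test, with 0 to 3 of the tested genes at an unadjusted p under 0.05 and 0.449 as the lowest adjusted p. Of all tested probe sets 22 passed, beside 14 with scan day as a block, 12 on the first scan day alone, 9 with the Xist covariate and 8 to 20 with 1 array left out. With the replicate number as a block 0 proteasome genes and 10 of all probe sets passed. Deviations of same-numbered embryos from their genotype means had correlations of -0.08, -0.11 and -0.02. With 3 arrays per genotype these values cannot tell whether the numbers pair the embryos, and the meaning of the numbers is unknown. Without the intensity trend 0 of all probe sets passed (1571 at an unadjusted p under 0.05). The median over the tested genes was 0.041 on the second scan day alone, -0.030 with probe sets of a gene averaged, and -0.017 to 0.024 with 1 array left out. The alpha subunits gave 0.078 with the filter at 60% and 0.075 with the Xist covariate. On the second scan day alone the immunoproteasome group gave 0.12 and the other activators and inhibitor 0.11. With probe sets averaged the non-ATPases gave -0.047 and the other activators and inhibitor -0.090. With 1 array left out the medians were -0.062 to 0.0044 for the non-ATPases and -0.089 to 0.056 for the assembly factors.

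Of 304 values of 16 genes under the alternatives, 14 changed sign, and 0 of the 288 with a test passed. On the second scan day alone Psmb10 differed by 0.39 and Psmd7 by 0.54; on the first alone Psme1 differed by 0.011 and Psme4 by 0.016. The cause was not tested. With 1 array left out the values ran from -0.0062 to 0.21 for Psmd13, -0.24 to 0.12 for Psmb10, -0.11 to 0.023 for Psme1, -0.016 to 0.12 for Psmf1, -0.084 to 0.020 for Psme4 and -0.22 to 0.032 for Psmd7. Signal near background limits what can be said of Psmb8, Psmb9, Psmb11 and Psma8.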
